A study of Mus musculus with 23 samples.

Results

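Lrrc4b, Epn3, Lypd2 and Lrrc15 are 4 of the 43154 features measured in mouse hearts. They were chosen by their large falls in calcineurin-transgenic hearts against wild type hearts, both given vehicle, at day 45. That comparison is therefore given here as a description. The tests below compare libraries that it did not use, although the fits take part of their estimate of the spread from its libraries. The series holds 23 libraries of heart RNA from C57BL/6 mice, 14 from CnAtg mice and 9 from wild type (WT) mice. Sex, inferred from Xist and Ddx3y, was male in 4 WT and 5 CnAtg libraries and was not balanced between the groups compared. CnAtg mice carry a calcineurin A transgene that the alpha-myosin heavy chain promoter drives in heart muscle cells, and they are a model of severe cardiac hypertrophy. At day 45 each genotype had 3 libraries with vehicle and 3 with JIB-04. At day 77 WT had 3 libraries with JIB-04, and CnAtg had 4 with vehicle and 4 with JIB-04. JIB-04 is a small molecule that blocks Jumonji demethylases of histones. Animals received 50 mg/kg on 3 days of a week; dosing of the CnAtg mice began at week 4 for the hearts taken at day 45 and at week 5 for those taken at day 77. The start week is not given for the WT JIB-04 hearts. By the series text WT mice had vehicle alone, but 6 WT libraries are labelled JIB-04, and these labels were followed. In the deposit those 6 carry sample numbers apart from the rest. Any difference in their preparation cannot be told apart from genotype where they are compared with CnAtg hearts. Nor can it be told apart from JIB-04 where they are compared with WT vehicle hearts. No WT vehicle group at day 77 was analysed here.

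Calcineurin is a calcium-activated phosphatase. It acts through NFAT transcription factors, and its activation in heart muscle drives hypertrophic growth. None of the 4 genes belongs to the usual marker genes of hypertrophy. Lrrc4b encodes a netrin-G ligand, a leucine-rich-repeat adhesion protein known from the postsynaptic side of nerve synapses, where it binds receptor phosphatases of the LAR family. Lrrc15 encodes another leucine-rich-repeat membrane protein, best known from fibroblasts activated by TGF-beta. Lypd2 encodes a small protein of the Ly6/uPAR family, whose members mostly sit on the cell surface by a lipid anchor. Epn3 encodes an epsin, an adaptor that helps to bend the membrane and recruit cargo during clathrin-mediated endocytosis, and it is known mainly from epithelia.

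Ppp3ca, the gene of the alpha catalytic subunit of calcineurin, lay at 23.6 to 29 FPKM (fragments scaled by transcript length and library size) in the 9 WT libraries and at 1415 to 1987 FPKM in the 14 CnAtg libraries. Between 12384 and 12782 features per library reached 1 FPKM. Depth was estimated from the smallest steps of the values, at 10800000 to 17500000 fragments in WT and 17700000 to 24100000 in CnAtg libraries, so the genotype with the lower member levels was the more deeply sequenced one. Mitochondrial transcripts took 20.8 to 27.1% of the summed FPKM in WT and 15.5 to 17.4% in CnAtg libraries. When mitochondrial and hemoglobin genes were removed before scaling, the genotype differences of the members under JIB-04 stayed between -2.79 and -1.69 on the log2 scale described below. Cardiomyocyte markers, 8 of 8 detected, summed to 17017 to 19881 FPKM in WT and 13292 to 15418 FPKM in CnAtg. Of these 8, 1 was higher and 5 were lower in CnAtg under JIB-04 at each day. Actn2 went up, from 520 to 618 FPKM in WT to 681 to 794 FPKM in CnAtg. Ryr2 overlapped, at 74.4 to 106 and 77.6 to 102 FPKM. In bulk tissue, fewer cells of a type and less RNA per cell cannot be told apart.

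The 4 loci lie on 4 chromosomes (build GRCm38, 1-based, the same in the deposited files and in GENCODE M21). Lrrc4b (ENSMUSG00000047085.14) runs from 44429018 to 44463351 on the plus strand of chromosome 7, and its longest coding transcript has 3 exons and 2728 bases. Lrrc15 (ENSMUSG00000052316.9) runs from 30269302 to 30283256 on the minus strand of chromosome 16, with 2 exons and 5310 bases. Lypd2 (ENSMUSG00000022595.7) runs from 74732247 to 74734329 on the minus strand of chromosome 15, with 3 exons and only 513 bases of transcript. Epn3 (ENSMUSG00000010080.15) runs from 94489599 to 94499974 on the minus strand of chromosome 11, with 10 exons and 3884 bases. No other feature of the files overlaps any of them, so reads of an overlapping or antisense gene in the files do not enter their values.

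The RefSeq promoter table (GRCm38.p6) matched 2 of the 4, Lrrc4b and Lrrc15. Their 250 bases before the start are shown, since only these 2 could be matched. They are also the 2 members whose levels went most closely together (Pearson r = 0.994 over the 23 libraries, mostly the gap between genotypes). Capitals mark the motif letters found by a search on both strands.
Lrrc4b: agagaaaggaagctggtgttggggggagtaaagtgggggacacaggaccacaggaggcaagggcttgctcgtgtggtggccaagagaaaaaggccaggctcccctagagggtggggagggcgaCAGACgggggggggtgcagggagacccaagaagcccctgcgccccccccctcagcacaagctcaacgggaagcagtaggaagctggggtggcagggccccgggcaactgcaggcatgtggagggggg
Lrrc15: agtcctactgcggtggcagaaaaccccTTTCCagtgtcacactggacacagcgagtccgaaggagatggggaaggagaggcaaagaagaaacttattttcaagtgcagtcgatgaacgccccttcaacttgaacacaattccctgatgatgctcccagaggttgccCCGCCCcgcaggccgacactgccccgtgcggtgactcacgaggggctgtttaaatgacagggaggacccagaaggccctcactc
The Lrrc4b sequence is chr7:44442237-44442486 (plus strand) and holds 66% G and C, against a median of 52.4% over 32851 promoters. Its start lies inside the locus of the files, which begins further upstream at 44429018. The capitals are the SMAD-type letters CAGAC at position -127 from the start, which 42.2% of all promoters hold. The Lrrc15 sequence is chr16:30283255-30283504 (minus strand, 56.4% G and C). It holds the NFAT core GGAAA as TTTCC on the opposite strand at position -223, and the GC box GGGCGG as CCGCCC at position -84. Those letters stand in 55.6% and 32.7% of all promoters. Letters of a TATA box (TATAAA, 12.4% of promoters), GATA sites (AGATAA, 9.99%, and TGATAA, 7.94%), a T-box site (AGGTGT, 11.8%), an E-box (CACGTG, 6.02%) and a MEF2 site (0.508%) were not in either window. No motif of the search was shared by both windows.

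The 4 genes lay between 2.24 and 18.5 FPKM in WT hearts and at most at 1.77 FPKM in CnAtg hearts. Over all groups the WT mean was 12.5 ± 3.56 FPKM (SD, n = 9) for Epn3, 7.98 ± 1.2 for Lrrc15, 7.68 ± 1.23 for Lrrc4b and 4.32 ± 1.19 for Lypd2. FPKM is scaled by length, so these levels can be set beside each other: Lrrc15 and Lrrc4b differed by less than their spread, and Epn3 lay above and Lypd2 below them. In CnAtg the mean was 0.874 ± 0.407 FPKM (n = 14) for Epn3, 0.171 ± 0.0513 for Lrrc15, 0.131 ± 0.156 for Lypd2 and 0.0777 ± 0.058 for Lrrc4b. The CnAtg mean was thus 1.01% of the WT mean for Lrrc4b, 2.14% for Lrrc15, 3.04% for Lypd2 and 6.97% for Epn3. Each member was lower in each of the 14 CnAtg libraries than in each of the 9 WT libraries, which held for 9.34% of the 13710 features tested over all libraries; this split includes the libraries that chose the members. The plot of levels by library shows these gaps.

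**Figure D1:**
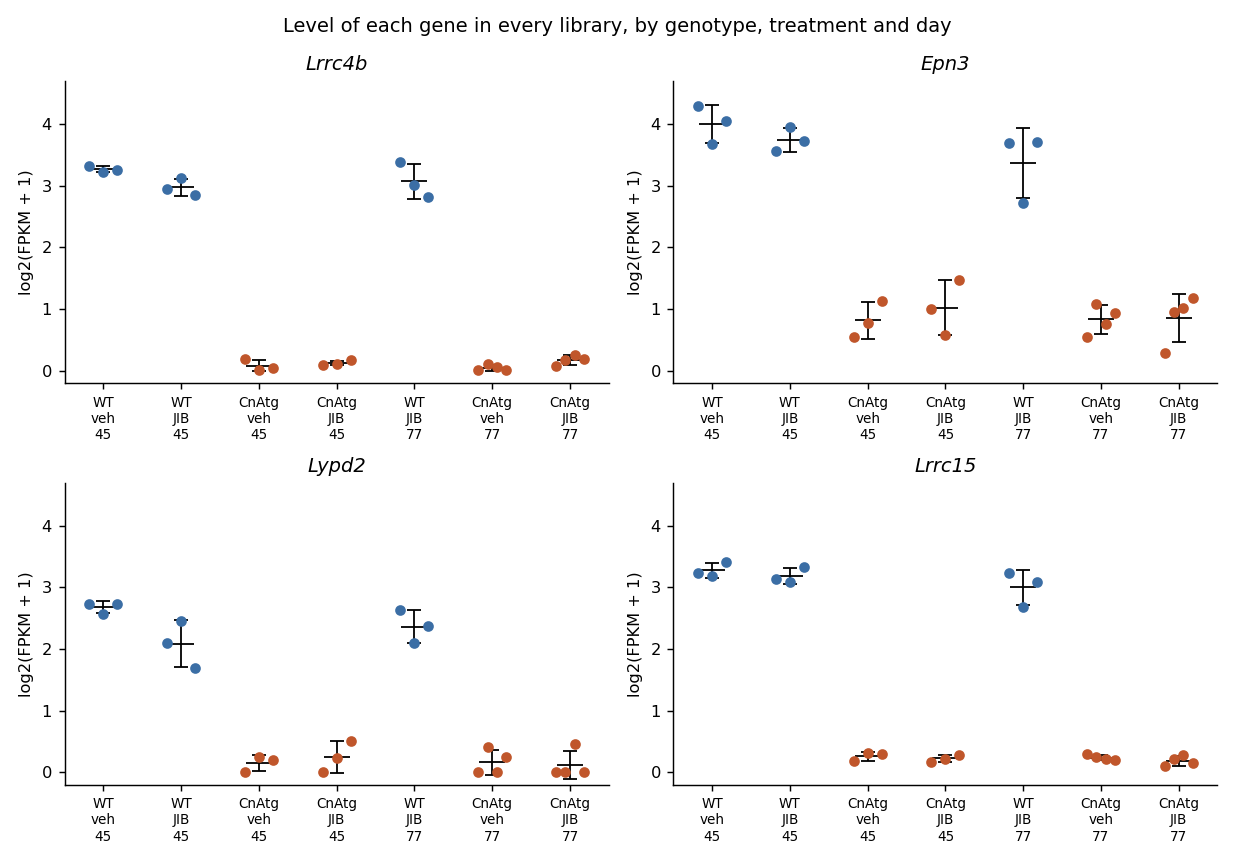
Level of Lrrc4b, Epn3, Lypd2 and Lrrc15 in each library, as log2(FPKM + 1) on the vertical axis, for the 7 groups on the horizontal axis (genotype, vehicle or JIB-04, day). Points are libraries (blue WT, orange CnAtg), and bars are the group mean ± SD. For each gene the 14 CnAtg points lie below the 9 WT points, with the smallest gap for Epn3.

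Of the members with leucine-rich repeats, Lrrc4b showed the wider gap. In WT hearts at day 45 it lay at 9.04, 8.36 and 8.61 FPKM with vehicle and at 6.71, 7.69 and 6.23 FPKM with JIB-04, and at day 77 it lay at 9.41, 7.03 and 6.09 FPKM with JIB-04. In CnAtg hearts at day 45 it lay at 0.136, 0.00835 and 0.0338 FPKM with vehicle and at 0.0658, 0.083 and 0.123 FPKM with JIB-04. At day 77 the CnAtg values were 0.011, 0.08, 0.041 and 0.00278 FPKM with vehicle and 0.0475, 0.127, 0.193 and 0.136 FPKM with JIB-04. The lowest WT library stood 31.5-fold above the highest CnAtg library. Within WT, the 3 vehicle libraries at day 45 lay above the 3 JIB-04 libraries of that day, while the day-77 libraries spread across both ranges. Lrrc4b has 3 coding transcripts, over which the authors' program shares fragments, so its smallest values can stand for less than 1 fragment.

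Lrrc15 lay at 8.43, 8.08 and 9.7 FPKM in WT vehicle, at 7.77, 7.49 and 9.06 FPKM in WT JIB-04 at day 45, and at 8.37, 5.41 and 7.54 FPKM in WT JIB-04 at day 77. These 3 groups overlapped. The CnAtg values at day 45 were 0.132, 0.241 and 0.232 FPKM with vehicle and 0.128, 0.167 and 0.213 FPKM with JIB-04. At day 77 they were 0.227, 0.186, 0.162 and 0.147 FPKM with vehicle and 0.071, 0.157, 0.221 and 0.11 FPKM with JIB-04. No CnAtg library was at 0, and the 4 CnAtg groups overlapped. Its transcript is long, and these values stand for an estimated 409 to 819 fragments per WT library and 7 to 28 per CnAtg library.

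Lypd2 was the lowest of the 4 in WT hearts. WT vehicle libraries lay at 5.68, 4.92 and 5.68 FPKM, WT JIB-04 libraries at 3.29, 4.49 and 2.24 FPKM at day 45 and at 5.18, 3.28 and 4.17 FPKM at day 77. The 3 WT vehicle values were above the 3 WT JIB-04 values at day 45, and the day-77 values overlapped both groups. In CnAtg at day 45 the values were 0, 0.193 and 0.15 FPKM with vehicle and 0, 0.171 and 0.425 FPKM with JIB-04. At day 77 they were 0, 0.333, 0 and 0.187 FPKM with vehicle and 0, 0, 0.379 and 0 FPKM with JIB-04. The short transcript makes these very small numbers: if the smallest CnAtg values stand for 1 fragment, the WT libraries held 10 to 27 fragments, and of the 14 CnAtg libraries 7 held 0, 4 held 1 and 3 held 2. A count of 0 allows up to 3 fragments, or 0.528 to 0.616 FPKM in the 7 libraries listed at 0, still below the lowest WT value of 2.24 FPKM. These limits cover counting error only.

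Epn3, the endocytic adaptor, had the highest level of the 4 in CnAtg hearts. It lay at 18.5, 11.7 and 15.6 FPKM in WT vehicle, at 10.8, 14.5 and 12.3 FPKM in WT JIB-04 at day 45, and at 12, 5.58 and 12 FPKM in WT JIB-04 at day 77. The WT groups overlapped, and day-77 replicate 2 was the lowest WT library for this gene, as it was for Lrrc15. The CnAtg values at day 45 were 0.457, 0.701 and 1.2 FPKM with vehicle and 1.01, 0.493 and 1.77 FPKM with JIB-04. At day 77 they were 0.454, 1.12, 0.69 and 0.921 FPKM with vehicle and 0.218, 0.925, 1.01 and 1.27 FPKM with JIB-04. Epn3 reached 1 FPKM in 6 of the 14 CnAtg libraries; the other 3 genes did so in 0. Its lowest WT library stood 3.15-fold above its highest CnAtg library, the narrowest gap of the 4. Epithelial markers were at the lower end in both genotypes: their 6 genes summed to 0.0908 to 1.2 FPKM in WT and 0.641 to 2.68 FPKM in CnAtg, and Epcam, Krt5, Krt14 and Cdh1 stayed under 0.5 FPKM in each library.

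In the comparison that chose them, CnAtg vehicle against WT vehicle at day 45, the differences in log2(FPKM + 1) were -3.19 for Lrrc4b (95% interval -3.39 to -2.99), -3.19 for Epn3 (-3.70 to -2.68), -3.02 for Lrrc15 (-3.23 to -2.81) and -2.53 for Lypd2 (-2.93 to -2.12). These are descriptions and carry no test. Ordered by the size of the fall among 13289 features, they held places 6, 7, 9 and 14. Kcne1, a potassium channel subunit, stood just above Lrrc4b at -3.26, and Clcn1, a chloride channel, just below Lypd2 at -2.52. Phkg1 (-3.07) and Pde1c (-2.94) stood next to members in that order and were not listed. The CnAtg libraries lay below the WT libraries without overlap for 4 of 4 members, as for 19.9% of features tested, from which nothing is read since this contrast chose the members. Because 1 FPKM is added before the logarithm, the log2 scale understates such falls: the WT mean was 146-fold the CnAtg mean for Lrrc4b, 47.4-fold for Lypd2, 43.4-fold for Lrrc15 and 19.5-fold for Epn3.

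Under JIB-04, in libraries the choice did not use, all 4 genes were lower in CnAtg than in WT hearts at both days. At day 45 Lrrc15 averaged 0.17 ± 0.0426 against 8.11 ± 0.842 FPKM (SD, n = 3 each), and Lrrc4b 0.0905 ± 0.0292 against 6.87 ± 0.749 FPKM. Epn3 averaged 1.09 ± 0.643 against 12.5 ± 1.85 FPKM, and Lypd2 0.199 ± 0.214 against 3.34 ± 1.13 FPKM. In limma's moderated test with Benjamini-Hochberg adjustment, the log2 difference was -2.96 for Lrrc15 (SE 0.10, adjusted p = 2.3e-09), -2.85 for Lrrc4b (SE 0.09, adjusted p = 2.2e-09), -2.73 for Epn3 (SE 0.23, adjusted p = 4.6e-06) and -1.84 for Lypd2 (SE 0.18, adjusted p = 1.6e-05). Of all features tested, 18.1% were called lower and 20.5% higher, and 23.5% had each CnAtg library below each WT library, as 4 of 4 members did. Lrrc15, Lrrc4b, Epn3 and Lypd2 held places 10, 11, 15 and 54 from the largest fall.

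At day 77 the 4 genes were again lower in CnAtg hearts. Lrrc4b averaged 0.126 ± 0.06 FPKM in CnAtg (SD, n = 4) and 7.51 ± 1.71 FPKM in WT (n = 3), Lrrc15 0.14 ± 0.0647 against 7.11 ± 1.52 FPKM, Epn3 0.857 ± 0.45 against 9.86 ± 3.71 FPKM and Lypd2 0.0948 ± 0.19 against 4.21 ± 0.952 FPKM. By the same limma test the log2 difference was -2.90 for Lrrc4b (SE 0.13, adjusted p = 3.2e-08), -2.81 for Lrrc15 (SE 0.13, adjusted p = 4.2e-08), -2.52 for Epn3 (SE 0.27, adjusted p = 2.3e-05) and -2.25 for Lypd2 (SE 0.17, adjusted p = 1.9e-06). Here 22.1% of 13212 features were called lower, 19.9% were called higher, and 23.6% had each CnAtg library below each WT library, as 4 of 4 members did. The members held places 9, 10, 17 and 27 from the largest fall. Except for Epn3, they passed the filter on low values (1 FPKM in 3 libraries) through WT libraries alone, so the count of 4 of 4 is not support beyond the single values. Counted in fragments, Lrrc15 stood at 2.05% of the WT level at day 45 (exact 95% counting interval 1.51 to 2.72%; 49 against 1802 fragments) and at 1.97% at day 77 (1.48 to 2.57%; 56 against 1775). Lypd2 stood at 6.11% (1.21 to 19.3%; 3 against 37 fragments) and at 2.23% (0.264 to 8.44%; 2 against 56).

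**Figure D2:**
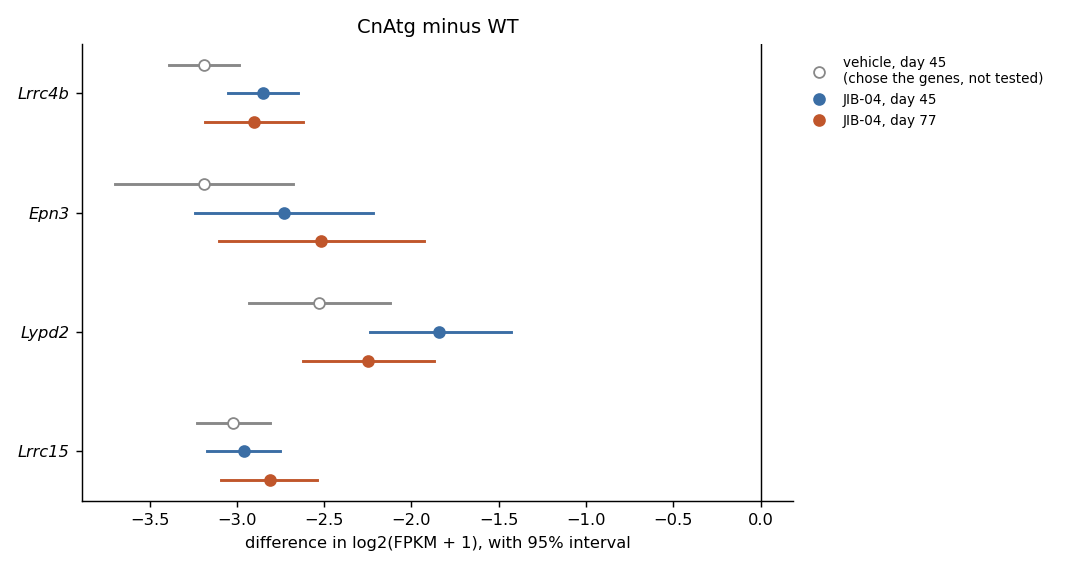
Difference between CnAtg and WT hearts in log2(FPKM + 1) for each gene, with its 95% interval from limma. Open grey points are the vehicle comparison at day 45 that chose the genes, and filled points are the JIB-04 comparisons at day 45 (blue) and day 77 (orange). The 12 intervals lie below 0, and those of the 2 ages under JIB-04 overlap for each gene.

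Whether the genotype effect under JIB-04 differed between ages was tested over all 23 libraries. The effect at day 77 minus that at day 45 was -0.05 for Lrrc4b (95% interval -0.37 to 0.26, adjusted p = 0.98 by limma), 0.14 for Lrrc15 (-0.18 to 0.47, adjusted p = 0.91), 0.21 for Epn3 (-0.58 to 1.00, adjusted p = 0.96) and -0.41 for Lypd2 (-0.95 to 0.13, adjusted p = 0.83). No member passed, and 0.00729% of features did (947 of 13710 at an unadjusted p under 0.05). A difference between ages as large as 0.47 on this scale for Lrrc15, or 0.95 for Lypd2, is not shown to be absent by these intervals. Age cannot be told apart here from the start and length of dosing.

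No change of the 4 genes with JIB-04 was detectable in CnAtg hearts. At day 77, JIB-04 against vehicle gave log2 differences of 0.12 for Lrrc4b (95% interval -0.14 to 0.38, adjusted p = 0.82 by limma), 0.02 for Epn3 (-0.52 to 0.57, adjusted p = 0.99), -0.05 for Lypd2 (-0.40 to 0.30, adjusted p = 0.96) and -0.05 for Lrrc15 (-0.31 to 0.21, adjusted p = 0.93). The share of all features called was 0%, with 984 of 13212 at an unadjusted p under 0.05. Adding 1 FPKM flattens changes at such low levels: the Lrrc4b mean was 0.0337 ± 0.0349 FPKM in the vehicle hearts against 0.126 ± 0.06 FPKM in the treated ones (SD over 4 libraries each, with ranges that overlap), and with a pseudocount of 0.1 its difference was 0.75 (SE 0.35, adjusted p = 0.69 by limma). Both means lie below the 7.51 FPKM of WT hearts under JIB-04 at that day. At day 45, where the vehicle libraries are those that chose the genes and no test is given, the differences in CnAtg were 0.04 for Lrrc4b (-0.16 to 0.24), 0.20 for Epn3 (-0.31 to 0.71), 0.09 for Lypd2 (-0.31 to 0.50) and -0.04 for Lrrc15 (-0.25 to 0.17).

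JIB-04 minus vehicle in the WT hearts of day 45 was -0.60 for Lypd2 (95% interval -1.0 to -0.19), -0.30 for Lrrc4b (-0.50 to -0.10), -0.26 for Epn3 (-0.76 to 0.25) and -0.10 for Lrrc15 (-0.31 to 0.11). In FPKM, Lypd2 averaged 3.34 ± 1.13 with JIB-04 and 5.42 ± 0.439 with vehicle, and Lrrc4b 6.87 ± 0.749 and 8.67 ± 0.347 (SD, n = 3 each). The WT vehicle libraries are among those that chose the genes for being high there, so these differences are not tested. The WT JIB-04 libraries also carry sample numbers apart from those of WT vehicle. A difference in preparation therefore cannot be told apart from JIB-04 here.

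Age was compared within JIB-04. It cannot be told apart here from the start and length of dosing, which began at week 4 (day 45) or week 5 (day 77) in CnAtg mice. For the WT JIB-04 hearts the start week is not given. In WT hearts, day 77 minus day 45 was 0.28 for Lypd2 (95% interval -0.11 to 0.67, adjusted p = 0.53 by limma), 0.10 for Lrrc4b (-0.13 to 0.33, adjusted p = 0.74), -0.18 for Lrrc15 (-0.42 to 0.05, adjusted p = 0.48) and -0.37 for Epn3 (-0.95 to 0.20, adjusted p = 0.57). No member passed, beside 0.328% of features (2077 of 13710 at an unadjusted p under 0.05). In CnAtg hearts under JIB-04 the differences were 0.04 for Lrrc4b, -0.04 for Lrrc15, -0.13 for Lypd2 and -0.16 for Epn3, with intervals reaching from -0.70 to 0.38 for the least precise, Epn3. Their adjusted p values by limma were 0.94, 0.95, 0.89 and 0.91, and 0.0365% of features passed (1075 at an unadjusted p under 0.05). In CnAtg hearts under vehicle, without a test, the 4 differences ran from -0.03 to 0.02.

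**Figure D3:**
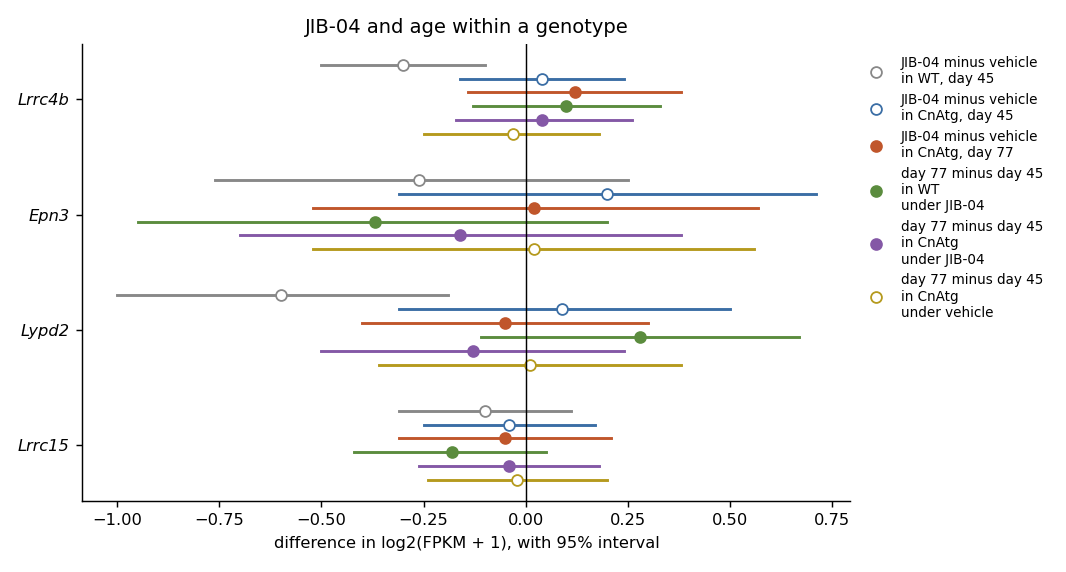
Differences in log2(FPKM + 1) within a genotype, with 95% intervals from limma: JIB-04 minus vehicle and day 77 minus day 45. Open points share libraries with the comparison that chose the genes and carry no test. All points lie between -0.60 and 0.28, and among the filled, tested points each interval spans 0.

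The features most like each member were taken by the Pearson correlation of log2(FPKM + 1) over the 23 libraries, with Gm, Rik, BC and AC gene models left out. For each member these included another member. For Lrrc4b they were Pde1c (r = 0.995), a cyclic nucleotide phosphodiesterase gene, Lrrc15 (0.994) and Clcn1 (0.993). For Lrrc15 they were Pde1c (0.994), Lrrc4b (0.994) and the magnesium transporter gene Slc41a1 (0.993). Lypd2 was most like Lrrc4b (0.983), Clcn1 (0.981) and the sialyltransferase gene St3gal4 (0.977). Epn3 was most like the lysophosphatidic acid receptor gene Lpar3 (0.984), Lrrc15 (0.980) and Spryd7 (0.979). None of these lies on the chromosome of its member. Since 14 libraries are CnAtg and 9 WT, these r values mostly repeat the gap between genotypes and are given as a description. Pde1c fell from 10.3 ± 0.802 FPKM in WT (SD, n = 9) to 0.305 ± 0.059 FPKM in CnAtg (n = 14), Clcn1 from 5.82 ± 1.07 to 0.169 ± 0.0629 FPKM, whereas Slc41a1 went from 24.8 ± 2.02 to 9.86 ± 0.603 FPKM.

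Within a genotype the members were not shown to vary together. Relations were computed without the 6 libraries that chose the genes, which leaves 6 WT libraries, all under JIB-04, and 11 CnAtg libraries. Of 12 relations (6 pairs in each genotype), 0 passed after Benjamini-Hochberg adjustment of permutation p values. The lowest p of Pearson's r was that of Lypd2 with Lrrc15 in CnAtg (r = 0.58, permutation p = 0.053, adjusted p = 0.29; Spearman rho = 0.54, permutation p = 0.094, adjusted p = 0.43), where r was 0.32 without the 2 libraries farthest from the Lypd2 median. In WT the highest r was that of Epn3 with Lrrc15 (r = 0.84, exact permutation p = 0.21, adjusted p = 0.42; rho = 0.26, exact permutation p = 0.66, adjusted p = 0.92), which came to 0.52 without 2 libraries. The lowest unadjusted p of all was that of rho for Lrrc4b with Epn3 in CnAtg (rho = 0.63, permutation p = 0.046, adjusted p = 0.43; r = 0.52, permutation p = 0.097, adjusted p = 0.29; r = 0.72 without 2 libraries). In WT the lowest p was that of Lrrc4b with Lypd2 (r = 0.70, exact permutation p = 0.086, adjusted p = 0.29). Its rho was 0.60 (exact permutation p = 0.24, adjusted p = 0.72), and r was 0.97 without the 2 libraries farthest from the Lrrc4b median. The libraries of each genotype span both days, and those of CnAtg both treatments.

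Genes close to the members are given by position, whatever their values. Within 100 kb of the 4 loci lie 42 other features of the files, of which 16 were tested at day 45 under JIB-04 (2 higher, 8 lower) and 15 at day 77 (3 higher, 8 lower), beside 18.1% lower and 20.5% higher (day 45) and 22.1% lower and 19.9% higher (day 77) of all features. With mitochondrial and hemoglobin genes left out these counts became 5 higher and 5 lower at day 45. At day 77 they became 4 higher and 5 lower. Of all features, that fit called 5071 higher and 1014 lower of 13273 at day 45. At day 77 it called 5418 higher and 1566 lower of 13196. The list counts of that fit given below stand beside the same numbers. Closest to Lrrc15, 1769 bases away, Cpn2, which encodes a leucine-rich-repeat subunit of a plasma carboxypeptidase, had a WT mean of 1.26 ± 0.319 FPKM (SD, n = 9) and a CnAtg mean of 0.0295 ± 0.0129 FPKM (n = 14). It was lower at day 45 by limma (log2 difference -1.02, adjusted p = 1e-05) and was under the filter at day 77. On the other side of Lrrc15, Atp13a3, a transporter gene, rose (0.72 and 0.91, adjusted p = 2.7e-05 and 0.00018). Beside Lrrc4b, 2039 bases away, Aspdh went from 0.51 ± 0.17 to 0.0208 ± 0.0333 FPKM, under the filter and so not tested. Of the 7 tested neighbours of Lrrc4b, 3 were lower at day 45 and 4 at day 77, and 0 were higher. Josd2 (92.1 ± 9.6 FPKM in WT, 81.4 ± 4.34 FPKM in CnAtg) was lower at day 77 alone (-0.21, limma adjusted p = 0.011). Mybpc2, a myosin-binding protein gene, fell at both days (-0.85 and -0.51, adjusted p = 2.1e-05 and 0.0082). So did Syt3 (-0.48 and -0.42, adjusted p = 0.042 and 0.018) and Pold1 (-0.45 and -0.61, adjusted p = 0.032 and 0.00033). Emc10 (57 ± 2.33 and 60.4 ± 2.61 FPKM) was not called. With mitochondrial and hemoglobin genes left out, Josd2 and Syt3 were not called, Pold1 was lower at day 77 alone, and Emc10 was higher at both days.

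Lypd2 stands among other Ly6/uPAR genes. Them6, a thioesterase-like gene 7607 bases away, fell from 12.2 ± 1.32 to 4.47 ± 0.567 FPKM (log2 difference -1.32 at day 45 and -1.29 at day 77, limma adjusted p = 2.9e-06 and 7.1e-06). Lynx1, a Ly6-type modulator of nicotinic receptors, fell from 88.3 ± 6.67 to 53.6 ± 2.98 FPKM (-0.65 and -0.72, adjusted p = 4.5e-05 and 7.6e-06). Both fell by less than Lypd2 on this scale, and the difference was not tested. Lypd2 was chosen for its large fall, so nothing is read from this order. Ly6d, Psca and Slurp1 averaged under 1 FPKM and were not tested. Around Epn3 the neighbours went both ways: Cacna1g, a T-type calcium channel gene that is also a marker of the conduction system, rose from 11.2 ± 1.49 to 28.4 ± 6.92 FPKM (1.30 and 1.36, adjusted p = 3.3e-05 and 0.0013), while Acsf2 (-0.61 and -0.74, adjusted p = 0.0037 and 0.0014) and Rsad1 (-0.30 and -0.37, adjusted p = 0.016 and 0.022) fell. Rsad1 did not pass with mitochondrial and hemoglobin genes left out. Mycbpap, 1372 bases from Epn3, averaged 0.333 ± 0.117 FPKM in WT and 0.659 ± 0.181 FPKM in CnAtg.

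**Figure D4:**
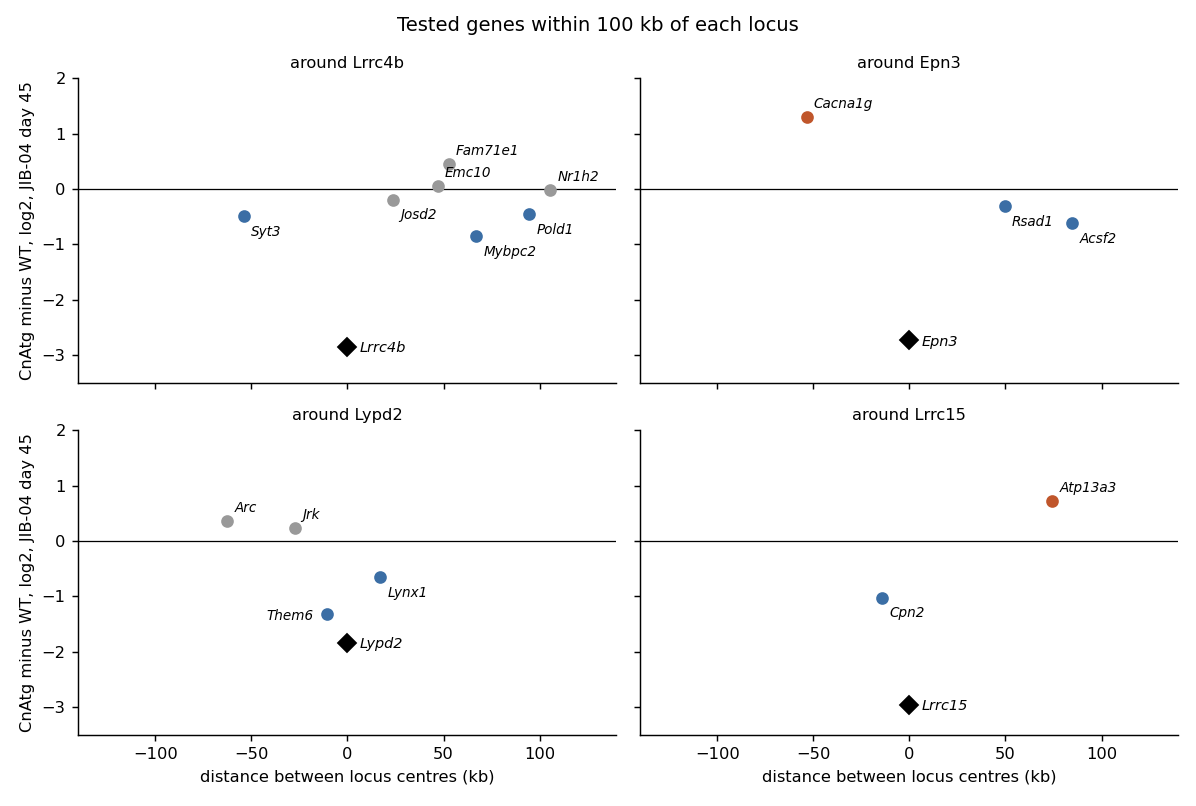
Genotype difference under JIB-04 at day 45 in log2(FPKM + 1), against the distance in kb between locus centres, for tested genes within 100 kb of each locus. Black diamonds are the 4 genes, blue circles genes called lower, orange circles genes called higher and grey circles genes not called. Each diamond lies below the circles of its panel, from Cacna1g at 1.30 to Them6 at -1.32. The 4 genes were chosen for large falls, so nothing is read from that place.

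Other genes of the members' families and pathways were taken from 5 lists. The first list held 15 genes: netrin-G ligands, netrin-Gs, LAR phosphatases, and the Dlg and Ppfia genes. Of these, 9 were tested at each day under JIB-04. At day 45, 2 were higher (Ntng2 and Ppfia1) and 0 lower, and at day 77, 1 was higher (Ntng2) and 0 lower. The median log2 difference of the 9 was 0.15 and 0.08, beside 0.02 and -0.01 over all features. With mitochondrial and hemoglobin genes left out, 4 were higher and 0 lower at each day. Ntng2, a netrin-G, rose from 3.7 ± 0.401 to 8.37 ± 1.77 FPKM (1.13 and 0.73, limma adjusted p = 0.0013 and 0.00021). Ptprs, the LAR phosphatase with the highest level here, averaged 13.4 ± 0.936 and 14.2 ± 1.31 FPKM and was not called, except at day 77 in that fit (0.31, limma adjusted p = 0.022). Lrrc4 and Lrrc4c, the other netrin-G ligands, averaged under 1 FPKM in both genotypes. Schwann and neuronal markers, 7 of 8 in the files, summed to 4.43 to 8.54 FPKM in WT and 3.83 to 6.65 FPKM in CnAtg, with Th and Prph under 0.5 FPKM in each library; of the 2 tested, 0 were called. Dbh of that list, the gene of the enzyme that makes noradrenaline, was under the filter and not tested; it lay at 0.179 to 0.837 FPKM in WT and 0.00278 to 0.0607 FPKM in CnAtg, without overlap. The part of these cells in the Lrrc4b values was not tested.

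The next list held 31 genes: epsins, clathrin, AP2 and their partners in endocytosis. Of these, 29 were tested, with 8 higher and 3 lower at day 45 and 7 higher and 5 lower at day 77 (medians 0.14 and 0.03). Most calls were of partners. Among the epsin, clathrin and AP2 genes themselves, Epn1 and Clint1 were called at day 45, both higher. At day 77 Clint1 was called higher and Ap2a2 lower. Epn1, the epsin with the highest level in these hearts, averaged 91.5 ± 4.98 FPKM in WT and 100 ± 5.68 FPKM in CnAtg (0.17 and 0.05, limma adjusted p = 0.048 and 0.63). Epn2 averaged 11.5 ± 0.347 and 9.77 ± 1.16 FPKM and was not called. In WT hearts Epn3, at 12.5 FPKM, lay close to Epn2; the differences between epsins were not tested. The membrane-bending genes Bin1 (1.62 and 2.10, adjusted p = 1.6e-05 and 1.1e-07) and Amph (1.43 and 1.21, adjusted p = 4.8e-06 and 6.8e-06) rose most. With mitochondrial and hemoglobin genes left out, which shifted the median of all features by 0.214 at day 45 and 0.195 at day 77, the lower calls of this list came to 0 at both days and the higher calls to 18 and 16.

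Of the Ly6/uPAR list, which leaves out Lypd2, 0 were higher and 8 lower of 10 tested at day 45, and 0 higher and 6 lower of 9 at day 77 (medians -0.59 and -0.75). Gpihbp1, which holds lipoprotein lipase on capillaries, fell from 99.6 ± 15 to 54.8 ± 7.28 FPKM (-0.99 and -0.85, limma adjusted p = 4.8e-07 and 0.0043). Ly6e fell by 0.60 and 0.76, Ly6a by 0.59 and 0.79 and Ly6c1 by 0.56 and 0.80 on the log2 scale, of which Ly6a and Ly6c1 did not pass at day 45 with mitochondrial and hemoglobin genes left out (adjusted p = 0.058 and 0.085). That fit called 5 lower and 1 higher at day 45 and 6 lower and 1 higher at day 77. Gpihbp1, Ly6a and Ly6c1 are known from endothelium, whose 8 markers summed to 299 to 381 FPKM in WT and 169 to 288 FPKM in CnAtg, with 6 of 8 lower at day 45 and 7 of 8 lower and 1 higher at day 77. The part of those cells in the Ly6/uPAR values was not tested. No gene of the list was called past a 2-fold difference in either comparison.

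Of 60 leucine-rich-repeat membrane and matrix genes, 25 were tested at day 45 (10 higher, 6 lower) and 24 at day 77 (10 higher, 7 lower), with medians of 0.18 and 0.19. In the fit that leaves out mitochondrial and hemoglobin genes, 13 were higher and 5 lower at day 45 and 12 higher and 3 lower at day 77. Lrrc52, an auxiliary subunit of a potassium channel, rose from 1.69 ± 1.21 to 23 ± 3.52 FPKM (3.55 and 2.80, limma adjusted p = 5.4e-08 and 3.6e-06), and Vasn, a binder of TGF-beta, from 4.44 ± 0.507 to 10.3 ± 1.65 FPKM (1.02 and 1.15, adjusted p = 3.1e-05 and 8.9e-05). Lrrc3b fell from 20.9 ± 4.58 to 7.27 ± 1.56 FPKM (-1.61 and -1.33, adjusted p = 2.3e-05 and 0.00047) and Lingo3 from 3.24 ± 0.832 to 0.981 ± 0.307 FPKM (-1.15 and -1.05, adjusted p = 3.4e-05 and 0.0022). The lowest log2 difference in this list was -1.61 at day 45 and -1.33 at day 77, above those of Lrrc4b and Lrrc15. This order depends on the added 1 FPKM and on the filter. Lrrc4b and Lrrc15 were also chosen for large falls, so nothing is read from it. Cpn2 of this list, at 1.26 ± 0.319 FPKM in WT and 0.0295 ± 0.0129 FPKM in CnAtg, gave -1.02 at day 45 and was not tested at day 77.

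Genes of TGF-beta signalling and activated fibroblasts, the setting in which Lrrc15 is known, were mostly higher in CnAtg hearts. Of 25, 23 were tested, with 16 higher and 1 lower at day 45 and 17 higher and 2 lower at day 77, and medians of 0.94 and 1.47. The ligand genes Tgfb3 (5.49 ± 0.448 to 87.7 ± 10.8 FPKM; 3.72 and 3.83, limma adjusted p = 3.4e-09 and 3.7e-10) and Tgfb2 (2.71 ± 0.43 to 26 ± 5.28 FPKM; 2.89 and 2.93, adjusted p = 1.1e-07 and 8.5e-07) rose, as did the matrix genes Col1a1 (1.28 and 1.47), Comp (2.43 and 3.47) and Cilp (2.42 and 2.97). Fap, a surface protease of activated fibroblasts, fell from 1.9 ± 0.377 to 0.734 ± 0.183 FPKM (-0.63 and -0.77, adjusted p = 0.00021 and 0.00078), as Lrrc15 did, and Tgfb1 was lower at day 77 (-0.54, adjusted p = 0.0068), a call lost with mitochondrial and hemoglobin genes left out, beside -0.21 at day 45 (adjusted p = 0.13). Fibroblast markers summed to 645 to 813 FPKM in WT and 854 to 1226 FPKM in CnAtg, with 8 of 8 higher at day 45 and 6 of 8 at day 77, and their part in these values was not tested.

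**Figure D5:**
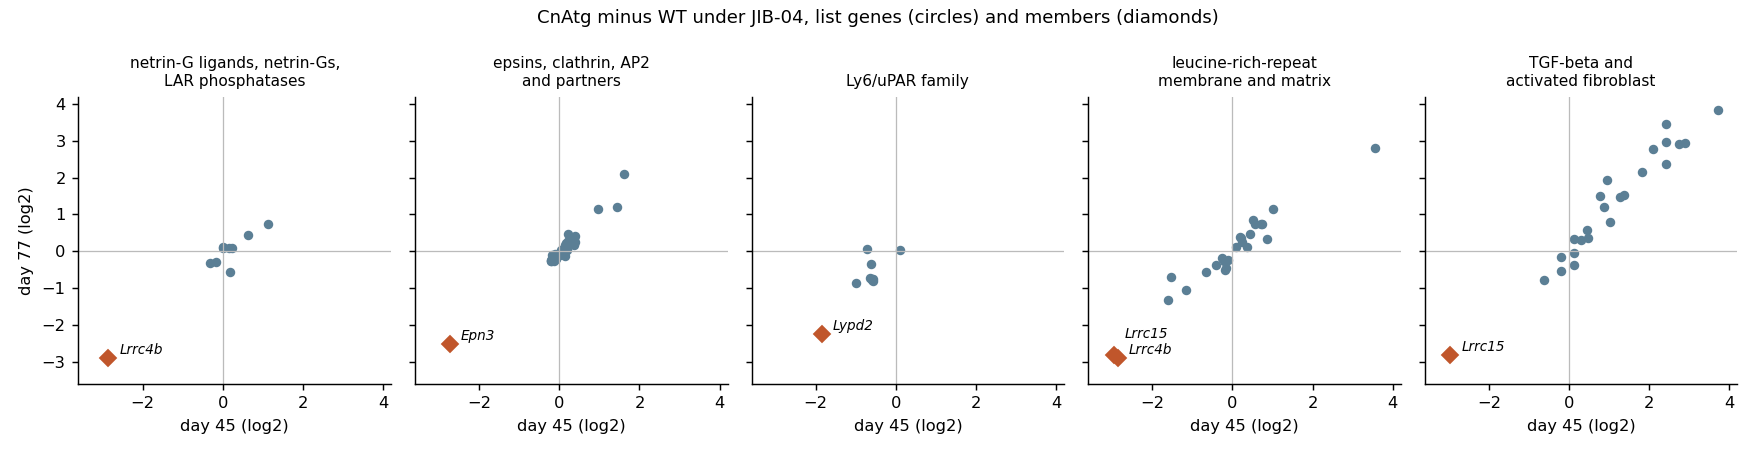
Genotype difference under JIB-04 in log2(FPKM + 1) at day 45 (horizontal) and day 77 (vertical) for genes tested at both days in 5 lists, one panel each (circles), with the related members (diamonds). Each diamond lies at the lower left of its panel, between -1.84 and -2.96 at day 45, while the TGF-beta and activated-fibroblast circles lie mostly above 0. The members were chosen for large falls, so nothing is read from the place of the diamonds.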

How the data were processed

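RNA was extracted with Trizol and sequenced from non-directional mRNA libraries, per the labels' protocols, so strand is not kept. Per the submitters' processing notes, the authors' tools were Cufflinks 2.2.1, STAR 2.7.1a, GATK 4.1.2 and Picard, with GRCm38; the annotation and filters are not given in the sources used here. Per the file headers, each deposited file gives a log2 FPKM for every feature. They hold exact zeros and no negative value and were read as log2(FPKM + 1), whereas plain FPKM had been assumed at first. FPKM was computed back from them. mt-Atp6, mt-Atp8 and mt-Co3, at 0 in 13 libraries, were left out as failed estimates.

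Groups followed the sample labels. Whether libraries are separate mice is not stated in the labels, so p values measure the spread between these libraries. Comparisons used R 4.3.3 with limma 3.58.1 (a mean for each group, variances moderated with an intensity trend, two-sided, Benjamini-Hochberg over all features with 1 FPKM in at least 3 libraries of the fit, adjusted p under 0.05), checked on simulated data. Fits held the 12 libraries of day 45, the 11 of day 77, or all 23 for ages. The members and lists were chosen with earlier results of these data known. Named besides the members were the 4 list genes with the highest WT level, list genes called past 2-fold at both days and neighbours within 100 kb. Also named were the 3 features most like each member (Gm, Rik, BC and AC gene models left out) and those next to it in order. Other list genes were named after their values were seen. Depth was estimated from whole-fragment steps in 3729 single-transcript genes of 1000 to 2500 bases with a fragment length of 250; 55.1% of 10893 steps came within 0.1 of a whole number, so fragments are estimates. Deviations from the group means gave r from -0.12 to 0.22 for same-numbered libraries and from -0.22 to 0.28 for other pairs. Between WT JIB-04 and WT vehicle at day 45, same-numbered pairs lay at 0.05 to 0.22 and other pairs at -0.21 to 0. Inferred sex followed the number in those groups. Numbers were not used as a block in the main fits. Promoters are from RefSeq (GRCm38.p6). Alternatives were a pseudocount of 0.1, no filter, a filter at 0.3 FPKM, median-ratio and quantile scaling, mitochondrial and hemoglobin genes left out, no intensity trend, another set of libraries, a replicate block, inferred sex and leaving out each library.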

Additional observations from a re-analysis of the deposited data

Results flagged for a closer look

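In CnAtg hearts under JIB-04 at day 77, Lypd2 stood apart in replicate 3, at 0.464 on the log2(FPKM + 1) scale, or 0.379 FPKM, while the other 3 libraries of the group were listed at 0. The value corresponds to an estimated 2 fragments. Because those 3 are tied, any value above 0 in the remaining library would have been set apart, so the usual chance rate of about 1 in 20 does not apply here. Of 8 groups of 4 libraries checked this way (4 genes, 2 groups), this was the 1 set apart.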

How the results depend on the processing

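The count of 4 members lower in CnAtg under JIB-04 at day 45 was 4 under each alternative run (leaving out a library: 4 to 4). At day 77 it was 4 under each alternative except without WT JIB-04 replicate 1, 2 or 3, where the count was 1 (leaving out a library: 1 to 4 in all): with 2 WT libraries left, Lrrc4b, Lypd2 and Lrrc15 no longer met the filter and were not tested, and Epn3 was called. Each of the 123 refitted genotype differences of single members that could be computed kept its direction and its call. With a pseudocount of 0.1 they were larger, to -5.20 for Lrrc4b at day 45. The counts for JIB-04, age and the age interaction stayed at 0 throughout. Among 296 refits of single members in those comparisons, 17 changed sign, and 0 passed. JIB-04 in CnAtg at day 77 gave -0.03 for Epn3 with a pseudocount of 0.1, -0.08 to 0.21 leaving out a library, and -0.17 to 0.03 for Lypd2. Age gave -0.06 to 0.22 for Lrrc4b in WT, and -0.38 to 0.06 for Epn3 and -0.25 to 0.00 for Lypd2 in CnAtg, leaving out a library. The interaction gave 0.11 for Lrrc4b with a pseudocount of 0.1 and -0.05 for Epn3 with inferred sex as a factor, and, leaving out a library, -0.18 to 0.10 for Lrrc4b, -0.12 to 0.44 for Epn3 and -0.02 to 0.26 for Lrrc15. The fit with the replicate block called 4 members at both days and 0 elsewhere. The labels do not say whether the numbers mark pairs. Over all features, leaving out mitochondrial and hemoglobin genes moved the higher share of calls from 53.2% to 83.3% at day 45 and from 47.4% to 77.6% at day 77. Age calls in WT ran from 1 to 60 against 45, and in CnAtg from 0 to 10 against 5. Depth limits Lypd2 most, with at most 2 estimated fragments in a CnAtg library.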
